A study of Rattus norvegicus with 18 samples.

Results

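Rat hippocampus labelled with an isocaloric diet was compared with rat hippocampus labelled with a control diet, neither of which contained alcohol. Samples were taken by their labelled diet: 6 arrays were labelled isocaloric (4 trained, 2 naive; 1 label spells the word with a typing error) and 4 control (2 trained, 2 naive), so 10 of the 18 arrays of the series were compared. The other 8 arrays carry the alcohol diet of a study on learning after alcohol exposure before birth; here they only help to estimate the spread and give levels for orientation. Trained samples went through a procedure that the labels abbreviate as CFC without spelling it out, and naive samples did not. Strain, age, sex, litter, the composition of the diets and how much was eaten are not given in the sources used here. The labels also do not say who ate the diets. Since the study is on exposure before birth, they may have been fed to the mothers of the rats sampled. Below, a change with the isocaloric diet means one between arrays so labelled. The labels do not say that arrays came from separate animals, so the p-values measure only how far these arrays spread, and that spread may be technical. RNA came from whole hippocampus, so fewer cells of a type and less RNA per cell cannot be told apart.

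In studies of alcohol in pregnancy, an isocaloric diet replaces the calories of alcohol with those of another nutrient, usually a sugar. It is often fed in the amount that the alcohol group eats, so that its comparison with the control diet shows what the feeding regime does without alcohol. Whether the amounts were matched in this way is not stated. The hippocampus, which forms memories of places and events, is supplied by capillaries whose endothelial cells are sealed by tight junctions, the blood-brain barrier, and wrapped by pericytes. Its neurons depend on respiration in mitochondria, whose complexes are built from nuclear-encoded and mitochondrial subunits, and on local protein synthesis by ribosomes.

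Array levels are log2(signal + 6.06), where the signal is the deposited linear intensity of a probe set, and every change is the isocaloric minus the control level on that scale. Total signal was 2952370 to 3114150 on the 10 arrays, and arrays of one group correlated at 0.952 to 0.985. Control arrays other than control naive replicate 1 stood apart on the first principal component. On the first principal component of all 18 arrays (24.6% of the variance) control naive replicate 2 scored 33.6, the trained control arrays 15.3 and 15.4 and control naive replicate 1 scored 2.04, against -4.75 to 0.55 on the isocaloric arrays. The ratio of 3' to 5' probe set signals, which rises as RNA is degraded, was lower with the isocaloric diet. For Gapdh the log2 ratio was 0.13 (SD 0.04, n = 6, range 0.06 to 0.18) against 0.26 (SD 0.07, n = 4, range 0.19 to 0.36; exact permutation p = 0.00476, the smallest that 210 splits allow, adjusted over 3 ratios 0.00714). For beta-actin it was 0.41 (SD 0.08, n = 6) against 0.64 (SD 0.09, n = 4; exact permutation p = 0.00476, adjusted 0.00714), and for hexokinase 1.09 (SD 0.12, n = 6) against 1.49 (SD 0.18, n = 4; exact permutation p = 0.00952, adjusted 0.00952). The Gapdh and actin ratios of the groups did not overlap, so RNA quality and diet cannot be told apart by the labels alone. Isocaloric trained replicate 3 and control trained replicate 1 were high in Ttr, the choroid plexus transcript (12.54 and 12.53, against 6.10 to 9.20 on the other 8 arrays).

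**Figure D1:**
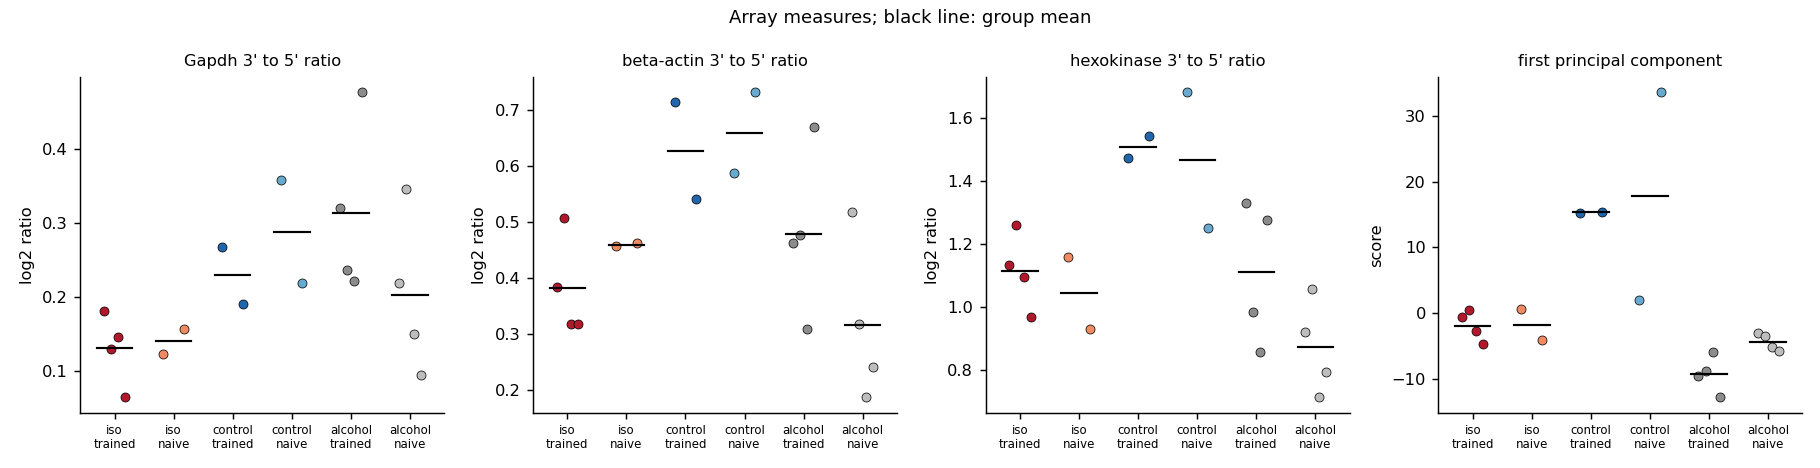
Log2 ratios of 3' to 5' signal for Gapdh, beta-actin and hexokinase and the score on the first principal component, for each of 18 arrays by group, with alcohol arrays in grey and a line at each group mean. All 4 control arrays lie above all 6 isocaloric arrays in the Gapdh and actin ratios, and control naive replicate 2 has the highest score, 33.6.

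Markers of hippocampal fields were found, but passing the filter did not set them apart from markers of other regions. Wfs1 and Mpped1 of CA1, Pcp4 and Rgs14 of CA2, and Prox1 and Calb1 of dentate granule cells all passed the filter on low values, with mean levels of 9.95, 9.14, 9.80, 8.09, 7.86 and 8.62. Of the markers on the array, 7 of 8 for CA1, 7 of 8 for CA2 and CA3 and 4 of 7 for dentate granule cells passed it. So did 3 of 6 for cortex (not Tbr1, Rorb and Cux2), 10 of 13 for striatum (not Drd1, Adora2a and Tac1) and 6 of 10 for thalamus. None of the 7 CA1, 7 CA2 and CA3 or 4 dentate markers tested passed the test between the diets, with medians of -0.06, -0.17 and -0.15. The CA1 genes with the smallest p, Mpped1 (-0.18) and Man1a1 (-0.17), did not pass, nor did Rgs14 (-0.23), Bok (-0.21), Stxbp6 (-0.22) and Calb1 (-0.20).

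Averaged over training state, endothelial genes of the vessel wall were higher and subunits of the respiratory chain and of ribosomes lower with the isocaloric diet. In all 671 of 9520 probe sets (7.05%) passed an adjusted p of 0.05, 404 higher (4.24%; 313 genes) and 267 lower (2.8%; 221 genes). The changes were small: 31 rises and 2 falls exceeded 2-fold, and the median of all probe sets was 0.02. All 6 isocaloric arrays lay above all 4 control arrays for 332 probe sets (3.49%) and below them for 225 (2.36%). Over all 15866 probe sets other than controls, without a filter on low values, 446 passed. The count rested on single arrays: it was 2362 without control naive replicate 1, 111 without control naive replicate 2, 168 and 224 without control trained replicates 1 and 2, 263 and 81 without isocaloric naive replicates 1 and 2, and 441 without isocaloric trained replicate 4. It was 38 with the actin ratio as a covariate, 637 with the Gapdh ratio and 555 with the hexokinase ratio, the last added after seeing the data. Of the 637 and 555 calls, 448 and 346 were among the 671 reported. The part of these ratios in the calls was not tested.

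**Figure D2:**
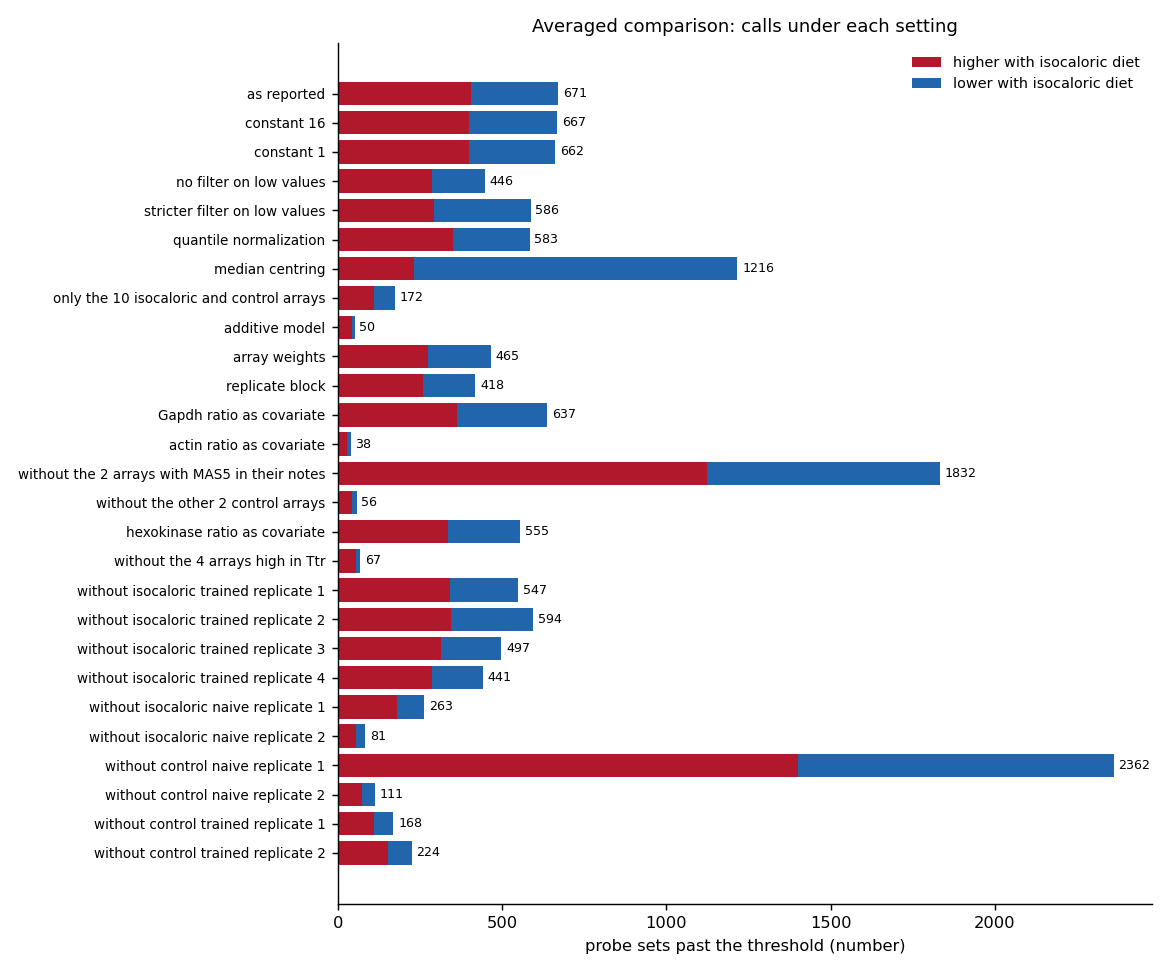
Number of probe sets past the threshold in the averaged comparison under each setting, split into higher (red) and lower (blue) with the isocaloric diet. The count runs from 38 with the actin ratio as a covariate to 2362 without control naive replicate 1, against 671 as reported.

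Transcripts of brain endothelium and mural cells rose in part. Of 28 endothelial and mural genes listed, 24 were on the array and 12 passed the filter. Of these 8 rose (66.7%, against 4.24% of all probe sets) and 0 fell, with a median of 0.49. The summed signal of the 12 was 2433 to 2612 on the isocaloric arrays and 1724 to 2153 on the control arrays, without overlap, and 2354 to 2584 on the alcohol arrays. Pecam1, Kdr, Tie1 and Vwf, which define endothelium, and the pericyte genes Pdgfrb and Kcnj8 were on the array but under the filter. Claudin 5 (Cldn5), the main tight junction protein of brain capillaries, had a level of 8.07, 8.16 and 8.30 (lowest, median, highest of 6) with the isocaloric diet and of 6.70 and 7.0 in trained and 6.90 and 6.87 in naive control samples. Every isocaloric array was thus above every control array by more than a log2 unit. The difference was 1.29 (SE 0.09, adjusted p = 7.36e-08, 2.44-fold), 1.38 in trained and 1.2 in naive samples. The 8 alcohol arrays had Cldn5 levels of 7.91 to 8.40, which lie with the isocaloric ones.

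**Figure D3:**
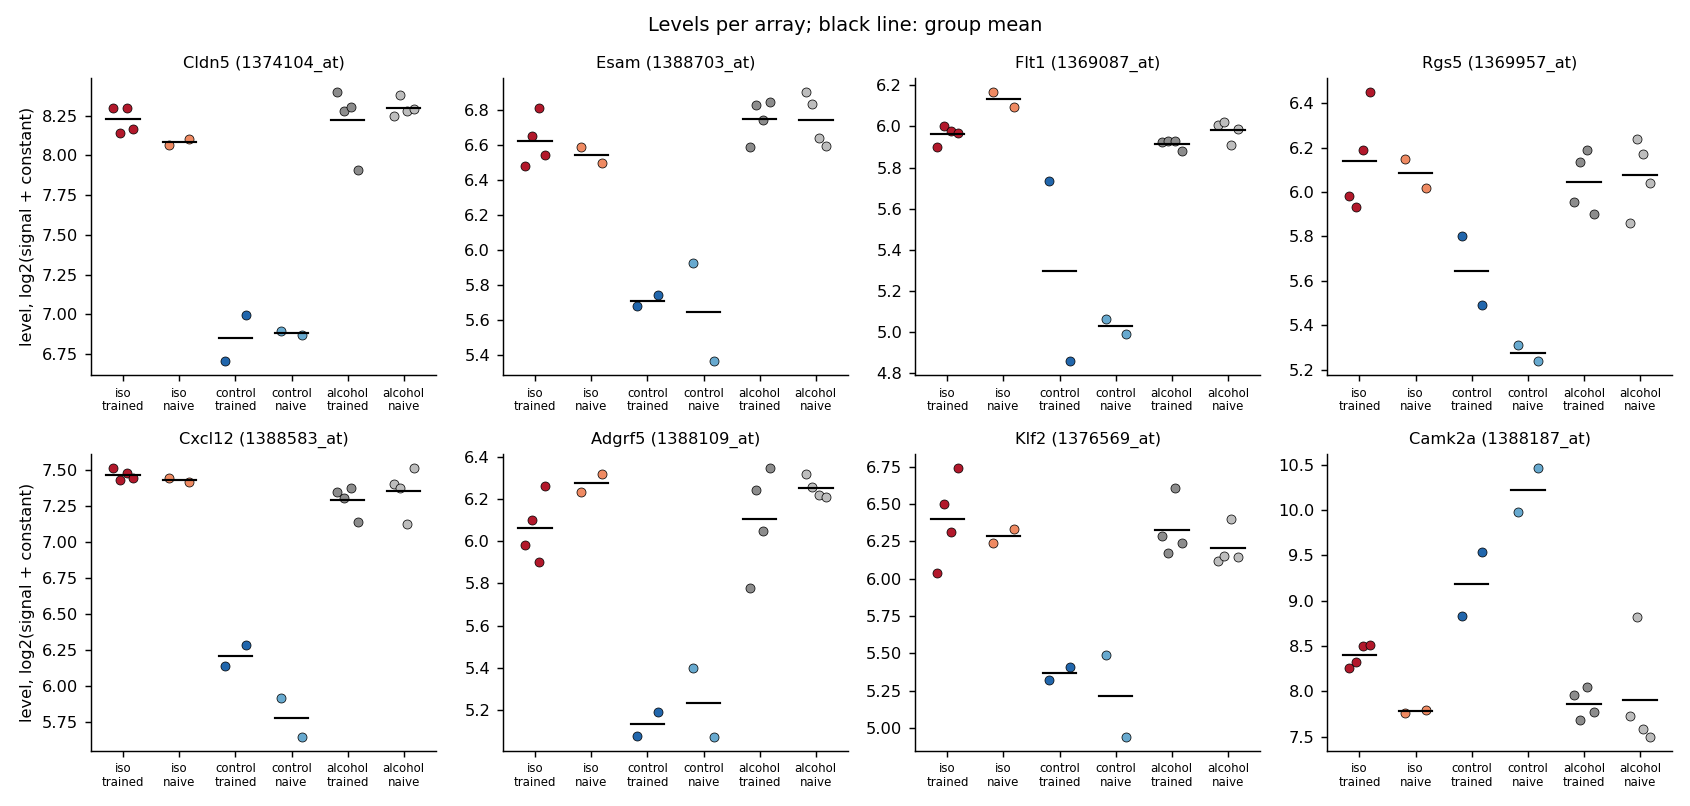
Levels of 8 probe sets on each of 18 arrays, as log2(signal + 6.06), by group, with alcohol arrays in grey and a line at each group mean. For Cldn5 and Cxcl12 the control arrays lie below all other arrays (6.70 to 7.0 and 5.64 to 6.28), whereas for Camk2a they lie above them (8.83 to 10.47).

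Cxcl12, a chemokine made by vessel walls and by granule neurons that guides migrating cells, gave a further gap. On 1 of its 3 probe sets it had levels of 7.41, 7.44 and 7.51 with the isocaloric diet and of 6.13, 6.28, 5.91 and 5.64 on control trained replicates 1 and 2 and naive replicates 1 and 2. The isocaloric arrays lay close together and all above the control arrays, a difference of 1.45 (SE 0.09, adjusted p = 2.38e-08). The other Cxcl12 probe sets differed: 1 rose by 0.68 (adjusted p = 0.0215), and the brightest, which stands for the gene in the endothelial list, was at 0.04 (adjusted p = 0.891). The rise therefore belongs to 2 of 3 probe sets and cannot be read as that of all Cxcl12 transcripts.

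Esam, an adhesion molecule of endothelial junctions, had levels of 6.48, 6.57 and 6.81 with the isocaloric diet and of 5.68, 5.75, 5.93 and 5.37 on the control arrays in the order above. It rose by 0.91 (SE 0.12, adjusted p = 0.000335), by the same amount in trained (0.91) and naive (0.90) samples, with no overlap. The VEGF receptor Flt1 was at 5.90, 5.99 and 6.17 against 5.74, 4.86, 5.06 and 4.99, so that control trained replicate 1 came close to the isocaloric arrays. Flt1 rose by 0.88 (SE 0.13, adjusted p = 0.00153). The pericyte regulator of G protein signalling Rgs5 rose by 0.65 (adjusted p = 0.00797), from 5.80, 5.49, 5.31 and 5.24 to levels between 5.93 and 6.45. Slc2a1, which encodes the glucose carrier of the barrier, rose by 0.33 (adjusted p = 0.0476), with isocaloric levels of 8.28 to 8.74 above control levels of 7.97 to 8.23. The other 3 members that rose did so by 0.45 to 0.57, and Ocln (0.34), Vegfa (0.20) and Tjp1 (-0.03) did not pass.

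Outside the list, 3 named genes with known roles in endothelium or its matrix rose; they were picked out by that background and form no tested group. Adgrf5, an adhesion receptor of endothelial and lung cells, rose by 0.98 (SE 0.13, adjusted p = 0.000291), with 5.90, 6.17 and 6.32 against 5.08, 5.19, 5.40 and 5.07 and no overlap; its second probe set was at 0.41 (adjusted p = 0.0642). Klf2, a transcription factor induced in endothelium by blood flow, rose by 1.05 (SE 0.15, adjusted p = 0.000692), with isocaloric levels of 6.04 to 6.74 above control levels of 4.94 to 5.49. A second Klf2 probe set did not pass (0.28, adjusted p = 0.383). Fn1, fibronectin of vessel and meningeal matrix, rose by 0.89 (SE 0.15, adjusted p = 0.0044), with levels of 7.0 to 7.29 against 6.55, 6.05, 6.35 and 6.0. It was the only one of 13 meningeal and fibroblast markers to pass, and the median of that list was 0.07. The calls of Cldn5, Cxcl12, Esam, Flt1 and Adgrf5 were kept under each of the 25 or 26 alternatives run for each of them. The number of list members that rose was 4 without control naive replicate 2, 4 without either isocaloric naive array, 5 without control trained replicate 2, 5 with the actin ratio as a covariate and 3 in an additive model of the 10 arrays. Alcohol trained replicate 4 had the highest Gapdh (0.48) and actin (0.67) ratios of its diet, which reach those of control arrays. Other alcohol arrays also reached the Gapdh ratios of control arrays (up to 0.35), but not their actin ratios (up to 0.52). Alcohol trained replicate 4 had Cldn5 at 7.91, Cxcl12 at 7.13 and Esam at 6.85, above all control arrays. Of the 8 alcohol arrays it was the lowest in Cldn5, Flt1 (5.88), Fn1 (6.58) and Slc2a1 (8.31) and the highest in Adgrf5 (6.35). This is 1 array and genes chosen after their values were seen. The part of RNA quality in the vessel rises was not tested.

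The starts of 3 genes are shown because probe sets of each rose, for Cxcl12 2 of its 3. RefSeq promoter sequences (GRCr8, 250 bases before to 50 after the start of the gene, written along the strand of the gene) were found for 8 of 10 vessel genes that rose (the 8 list members, Cxcl12 and Adgrf5). Capitals mark the ETS core GGAA on either strand, the letters bound by the ETS factors that act in endothelial genes.
Cldn5, chr11:95718549-95718848, minus strand: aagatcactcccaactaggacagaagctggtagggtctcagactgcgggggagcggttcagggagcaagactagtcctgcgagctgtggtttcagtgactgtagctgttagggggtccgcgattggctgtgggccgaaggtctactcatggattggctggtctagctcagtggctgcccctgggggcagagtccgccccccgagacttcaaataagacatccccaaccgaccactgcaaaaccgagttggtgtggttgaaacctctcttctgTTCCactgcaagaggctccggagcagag
Cxcl12, chr4:152060531-152060830, plus strand: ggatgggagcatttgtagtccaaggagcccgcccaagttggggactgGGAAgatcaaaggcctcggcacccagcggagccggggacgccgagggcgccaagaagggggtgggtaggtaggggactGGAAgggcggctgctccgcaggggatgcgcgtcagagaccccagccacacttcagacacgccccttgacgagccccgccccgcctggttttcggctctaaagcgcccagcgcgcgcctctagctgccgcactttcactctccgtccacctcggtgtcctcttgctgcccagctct
Flt1, chr12:12333180-12333479, plus strand: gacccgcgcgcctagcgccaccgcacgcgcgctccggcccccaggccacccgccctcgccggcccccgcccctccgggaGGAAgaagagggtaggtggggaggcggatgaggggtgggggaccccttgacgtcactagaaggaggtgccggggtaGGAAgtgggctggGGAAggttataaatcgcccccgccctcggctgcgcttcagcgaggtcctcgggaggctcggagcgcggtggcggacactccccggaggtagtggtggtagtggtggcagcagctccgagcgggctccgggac
The core occurred 1 time in the Cldn5, 2 times in the Cxcl12 and 3 times in the Flt1 window. It is in 7 of the 8 promoters found (87.5%) and in 95.8% of all 33469 promoters of the table, so its presence does not set them apart. The core CACCC, which Klf factors bind, was in 5 of the 8 (62.5%) and in 54.9% of all, again on either strand.

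Nuclear-encoded subunits of oxidative phosphorylation were lower. Of 77 genes listed, 69 were on the array and 68 passed the filter. Of these 21 fell (30.9%, against 2.8% of all probe sets), 0 rose and 67 of 68 had a difference below 0. Their median was -0.22, against 0.02 for all probe sets. Of the 68, 11 were lower on every isocaloric than on every control array, as were 2.36% of all probe sets. Their summed signal was 59726 to 68930 on the isocaloric arrays. On the control arrays it was 70493 and 70403 in trained samples and 70216 and 90613 in naive samples, so control naive replicate 2 stood far above the others and the groups did not overlap. The alcohol arrays, at 63458 to 74630, overlapped both. Ndufb1, an accessory subunit of complex I, had levels of 8.42, 8.58 and 8.81 against 8.96, 8.88, 9.28 and 10.06. It fell by 0.74 (SE 0.13, adjusted p = 0.0044), by 1.21 in naive samples (adjusted p = 0.00338), and its difference in trained samples was -0.27 (adjusted p = 0.485). Atp5f1e, the epsilon subunit of ATP synthase, fell by 0.71 (SE 0.12, adjusted p = 0.00456), with isocaloric levels of 9.62, 9.89 and 10.37 and control levels of 10.38, 10.26, 10.43 and 11.12, so the highest isocaloric array reached the control range. The ATP synthase delta subunit Atp5f1d fell by 0.40 (adjusted p = 0.00653) and the complex I subunits Ndufb11 by 0.31 (adjusted p = 0.0109) and Ndufa7 by 0.45 (SE 0.07, adjusted p = 0.002). Ndufa7 is not in the list and was named for its small p. Uqcc2, an assembly factor of complex III that is also outside the list, fell by 0.66 (adjusted p = 0.0131).

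The NRF1 core GCGCATGC, to which a factor of nuclear genes for mitochondria binds, was searched on both strands in the same RefSeq windows, and overlapping matches were counted. It was in 5 of 18 promoters found for the 21 oxidative phosphorylation genes that fell (27.8%), in 2 of 43 found for the 47 that did not pass (4.65%) and in 2.47% of all promoters. Windows of the 2 genes that fell and hold more than 1 match are shown, with the matched letters in capitals.
Ndufa11, chr9:1637364-1637663, plus strand: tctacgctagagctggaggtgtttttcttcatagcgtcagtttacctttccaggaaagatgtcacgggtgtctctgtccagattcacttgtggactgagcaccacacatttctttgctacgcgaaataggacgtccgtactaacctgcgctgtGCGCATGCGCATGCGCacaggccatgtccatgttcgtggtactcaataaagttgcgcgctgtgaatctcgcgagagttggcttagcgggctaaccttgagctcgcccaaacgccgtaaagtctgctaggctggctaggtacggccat
Atp5po, chr11:44657434-44657733, minus strand: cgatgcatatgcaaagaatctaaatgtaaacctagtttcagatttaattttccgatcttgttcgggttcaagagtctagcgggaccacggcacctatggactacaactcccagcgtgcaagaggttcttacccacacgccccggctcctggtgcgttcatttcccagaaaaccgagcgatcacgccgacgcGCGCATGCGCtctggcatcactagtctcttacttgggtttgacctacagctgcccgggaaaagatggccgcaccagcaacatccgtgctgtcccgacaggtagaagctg
Ndufa11, a complex I subunit, held 4 overlapping matches and Atp5po, the stalk subunit of ATP synthase, 2. These shares describe letters in the windows and say nothing about binding in these samples.

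Cytosolic ribosomal proteins were lower as well. Of 79 genes, 40 were on the array and 39 passed the filter. Of these 16 fell (41%, against 2.8% of all probe sets) and 0 rose, with a median of -0.30. Of the 39, 6 were lower on every isocaloric than on every control array, as were 2.36% of all probe sets. The summed signal of the 39 was 54645 to 66055 on the isocaloric arrays. It was 67116 and 62895 on the trained and 66677 and 93415 on the naive control arrays. Control naive replicate 2 was thus again the highest, and the groups overlapped. Rpl13a, of the large subunit, had levels of 9.93, 10.02 and 10.21 against 10.21, 10.26, 10.78 and 11.45. It fell by 0.66 (SE 0.10, adjusted p = 0.00111). Rps15, of the small subunit, fell by 0.61 (SE 0.11, adjusted p = 0.00472), Rplp0 of the stalk by 0.34 (adjusted p = 0.0213) and Rpl22 by 0.34 (adjusted p = 0.0225). In trained samples Rps15, Rplp0 and Rpl22 were at -0.18, -0.02 and 0.04, against -1.04, -0.66 and -0.71 in naive samples. Within trained samples 0 ribosomal and 0 oxidative phosphorylation genes passed as lower. Ribosomal proteins have many near-identical pseudogenes, so their probe sets may be uncertain. Both lists had medians below 0 in a comparison whose isocaloric arrays also had lower 3' to 5' ratios. The Gapdh ratio was 0.36 and the actin ratio 0.59 on control naive replicate 1, against 0.22 and 0.73 on its replicate 2. Both lists also moved with control naive replicate 2. Without that array 3 oxidative phosphorylation and 2 ribosomal genes fell, without control naive replicate 1 the numbers were 46 and 33, and without the 2 control arrays other than those with MAS5 in their notes they were 0 and 1. They were 13 and 6 without isocaloric trained replicate 4, 14 and 7 without replicate 3, 19 and 9 without replicate 1, 8 and 2 without isocaloric naive replicate 1, 2 and 2 without replicate 2, 6 and 2 without control trained replicate 1 and 7 and 2 without its replicate 2. With the actin ratio as a covariate they were 0 and 1, while the list medians were -0.19 and -0.16 and the differences of Atp5f1e and Atp5f1d stayed at or below -0.51 and -0.32 under every alternative run. The part of RNA quality in the falls was not tested beyond this.

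**Figure D4:**
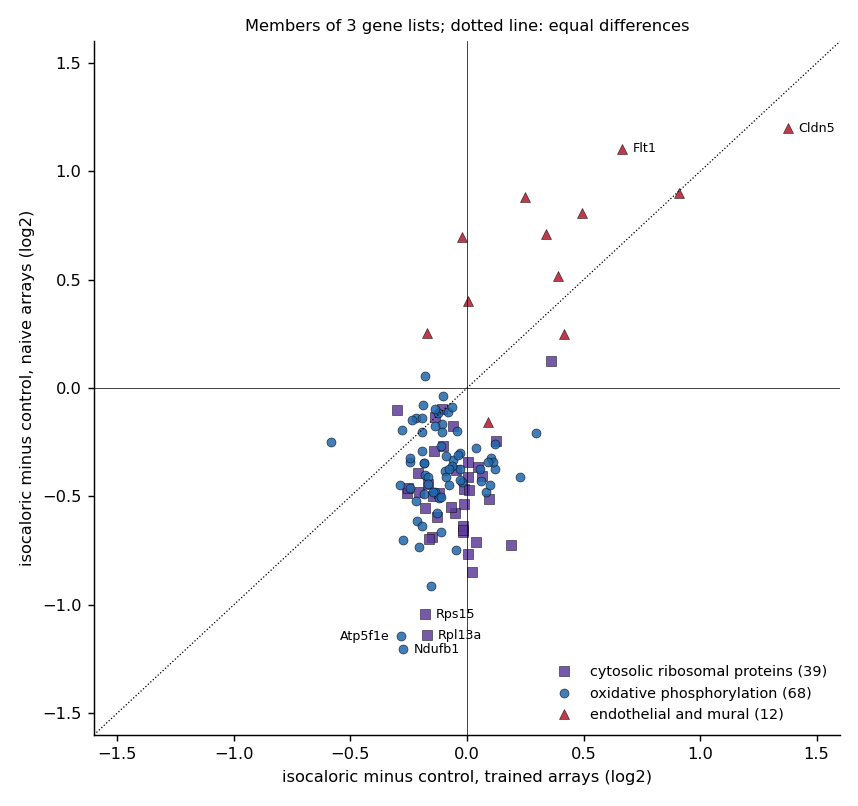
Isocaloric minus control difference (log2) of each member of 3 gene lists, in trained arrays (horizontal) and naive arrays (vertical); the dotted line marks equal differences. Endothelial genes have medians of 0.37 in trained and 0.70 in naive arrays, with Cldn5 at 1.38 and 1.2. Oxidative phosphorylation and ribosomal genes have naive medians of -0.37 and -0.48 and trained medians of -0.12 and -0.06.

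Other housekeeping groups leaned the same way. The share that fell was 14.7% of proteasome, 12.9% of chaperone and 14.7% of antioxidant and alcohol genes, against 2.8% of all probe sets. Of 34 proteasome genes 5 fell and 0 rose (median -0.15), among them the catalytic subunits Psmb5 (-0.26, adjusted p = 0.0192) and Psmb10 (-0.42, adjusted p = 0.0313) and the subunits Psma4 (-0.36) and Psmb4 (-0.39). Of 31 chaperones 4 fell, the Hsp40 proteins Dnaja1 (-0.37, adjusted p = 0.00621) and Dnaja2 (-0.27), the Hsp70 cofactor Bag1 (-0.34) and the chaperonin subunit Cct5 (-0.30). Dnaja1 was lower on all 6 isocaloric arrays (9.54 to 9.69) than on the control arrays (9.94, 10.01, 9.81 and 10.13). Of 34 genes of antioxidant defence and alcohol metabolism 5 fell and 1 rose: the lipid peroxidase Gpx4 fell by 0.41 (adjusted p = 0.00665), the glutathione transferase Gstm5 by 0.52 and the metallothioneins Mt3 and Mt2A by 0.42 and 0.38, whereas mitochondrial Sod2 rose by 0.27 (adjusted p = 0.0401). All 4 chaperone calls were lost without isocaloric naive replicate 2 and with the actin ratio as a covariate. Of the chaperones 11 fell without control naive replicate 1, 1 without control naive replicate 2 and 2 without either control trained array or isocaloric naive replicate 1. Of the antioxidant list 12 fell without control naive replicate 1, 3 without isocaloric trained replicate 1 or 3, 2 without isocaloric trained replicate 4 or isocaloric naive replicate 1 and 1 without any 1 of control naive replicate 2, the control trained arrays and isocaloric naive replicate 2. No proteasome gene fell without control naive replicate 2, either control trained array or isocaloric naive replicate 2, nor with the actin ratio as a covariate. The number was 16 without control naive replicate 1, 1 without isocaloric naive replicate 1, 3 without isocaloric trained replicate 1 or 2 and 2 without replicate 3 or 4.

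The synaptic vesicle, glutamate receptor, synaptic adhesion and potassium channel lists had medians above 0, with few members past the test. The median of the Rab and endosome list was -0.002. Over all probe sets the median was 0.02 and 4.24% rose. The shares that rose were 18.2% for the vesicle, 11.4% for the glutamate, 6.25% for the adhesion, 8% for the potassium channel and 2.56% for the Rab list. The last 3 rest on 1 or 2 genes each. Of 22 genes of synaptic vesicles and the active zone 4 rose and 0 fell (median 0.19): the scaffolds Pclo by 0.79 (SE 0.15, adjusted p = 0.00624) and Bsn by 0.39, the vesicle GTPase Rab3a by 0.46 (adjusted p = 0.00814) and Syt11 by 0.57. Pclo was at 7.79, 8.07 and 8.25 with the isocaloric diet and at 7.41, 7.08, 7.68 and 6.85 on the control arrays, without overlap. Of 35 genes of glutamate receptors and the postsynaptic density 4 rose and 1 fell (median 0.17). Dlg2, a scaffold also called PSD-93, rose by 1.01 (SE 0.22, adjusted p = 0.0143), the metabotropic receptor Grm2 by 0.60, the NMDA receptor subunit Grin1 by 0.42 and the AMPA receptor partner Cacng3 by 0.38. Grm2, Grin1 and Cacng3 overlapped between the diets, since control naive replicate 1 reached the isocaloric range (7.41, 9.19 and 7.83). Without control naive replicate 2 these 3 calls were lost, with Grm2 at 0.32, Grin1 at 0.19 and Cacng3 at 0.25. The 4 rises of the list were 14 without control naive replicate 1, 2 without isocaloric trained replicate 2 or 4, 0 without isocaloric naive replicate 2, and 1 without any 1 of isocaloric naive replicate 1, control naive replicate 2 and the control trained arrays. Of 16 synaptic adhesion genes only Cntnap1, of the axon beside nodes of Ranvier, passed (0.48, adjusted p = 0.0195; list median 0.22). Of 25 potassium channel genes Kcnq3 (0.47) and Kcna1 (0.58, adjusted p = 0.0188) rose (median 0.18), and of 39 Rab and endosome genes Rab3a rose and Rab5c of early endosomes fell by 0.52 (adjusted p = 0.0162). The count of rises in the vesicle list was 0 with the actin ratio as a covariate and 9 without control naive replicate 1. It was 2 without any 1 of control naive replicate 2, the control trained arrays and isocaloric trained replicate 3, and 1 without isocaloric naive replicate 2.

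Camk2a, the abundant kinase of synaptic plasticity, had the largest fall. On 1 probe set it was at 8.25, 8.33, 8.50 and 8.51 in isocaloric trained and 7.77 and 7.79 in isocaloric naive samples, against 8.83 and 9.54 in control trained and 9.98 and 10.47 in control naive samples. The groups did not overlap and the difference was -1.62 (SE 0.20, adjusted p = 0.000284), -2.44 in naive samples (adjusted p = 0.000445) and -0.79 in trained samples (adjusted p = 0.194). The alcohol arrays, with a median of 7.75 and a range of 7.5 to 8.82, also lay below the control arrays. A second Camk2a probe set went the other way and rose by 0.96 (adjusted p = 0.0413), so the gene's total transcript cannot be said to have fallen.

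Genes of inhibitory signalling rose in part. Gad1, which makes GABA from glutamate, had levels of 7.16, 7.55 and 7.74 on 1 probe set with the isocaloric diet and of 6.43, 6.52, 6.41 and 6.37 on the control arrays, without overlap. The difference was 1.07 (SE 0.11, adjusted p = 2.56e-05), 0.98 in trained and 1.16 in naive samples, and its call was kept under each of 26 alternatives. A brighter Gad1 probe set was at 0.14 (adjusted p = 0.168). Of 14 genes of GABA synthesis and receptors 3 rose (21.4%, against 4.24% of all probe sets) and 0 fell. Gad2 rose by 0.50 (adjusted p = 0.0271) and the receptor subunits Gabbr2 by 0.40 (adjusted p = 0.0328) and Gabrb2 by 0.34 (adjusted p = 0.0487). Of 10 interneuron markers only Gad2 passed, and the median was 0.06. The 3 rises became 1 without control naive replicate 2, control trained replicate 2 or isocaloric trained replicate 1 or 4, 0 without control trained replicate 1 or either isocaloric naive array, and 2 without isocaloric trained replicate 2 or 3.

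Several of the largest rises varied widely among the control arrays. Nlgn3, a neuroligin of the postsynaptic membrane, was at 6.21, 6.29 and 6.63 with the isocaloric diet, and at 3.49 and 5.83 in trained and 5.89 and 3.67 in naive control samples. It rose by 1.67 (SE 0.38, adjusted p = 0.0156), and its second probe set was at 0.35 (adjusted p = 0.129). The linker histone H1f10 rose by 1.51 (SE 0.32, adjusted p = 0.0126), with control levels of 4.67, 4.65, 4.75 and 6.07 and isocaloric levels of 5.64 to 7.53. It was the only one of 20 genes of DNA methylation and histones to pass. Cdh22, a brain cadherin, rose by 1.32 (SE 0.33, adjusted p = 0.0253), although control naive replicate 1, at 9.58, lay within the isocaloric range of 8.60 to 9.62. The long noncoding RNAs Miat (1.10, adjusted p = 0.0192) and Meg3 (0.92, adjusted p = 0.0131) showed the same order, with control naive replicate 1 the highest control array at 9.19 and 10.15. Meg3 alone of 17 neuron markers passed, and their median was 0.06. The zinc finger protein Zfp414 rose by 1.29 (SE 0.20, adjusted p = 0.0017) and Leng8 by 1.23 on 1 probe set. That Leng8 probe set overlapped between the diets, with control naive replicate 2 the lowest array at 3.67. A second, brighter Leng8 probe set was at 0.18 and did not pass (adjusted p = 0.519). The taurine transporter Slc6a6 rose by 1.07 (SE 0.17, adjusted p = 0.0017) and the proteoglycan serglycin, Srgn, by 1.06 (SE 0.13, adjusted p = 0.000225). The channel subunit Kcnab2 (1.26), the pyruvate dehydrogenase kinase Pdk2 (1.17) and the progestin receptor Paqr8 (1.09) rose on 1 probe set, while a second one was at -0.14, 0.11 and -0.23 and did not pass.

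Among other falls named by size or p, every isocaloric array was below every control array for Chtf8, of the sister chromatid cohesion machinery (-0.85, SE 0.16, adjusted p = 0.00621), Ly6h (-0.71, adjusted p = 0.00624), Marf1, an RNA-binding regulator of meiosis (-0.71, SE 0.11, adjusted p = 0.0017), the chromatin and phosphatase regulator Anp32a (-0.67, adjusted p = 0.0303), Ociad1 (-0.64, SE 0.10, adjusted p = 0.0023) and the esterase Esd (-0.57, SE 0.09, adjusted p = 0.0017). Marf1 was at 7.19, 7.36 and 7.62 against 7.93, 7.94, 8.09 and 8.37. The translocon subunit Sec61g fell by 0.60 (adjusted p = 0.0132), with overlap. Calls of Camk2a, Marf1 and Ociad1 were kept under each of 26 alternatives. Of all 74 calls named here from the averaged comparison 9 were kept under every alternative run, namely these 3, Gad1 and the 5 vessel genes above.

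The lists for feeding and for recent neuronal activity had no member past the test of the averaged comparison. Many members were under the filter and not tested, so 25 of 37 feeding and 21 of 33 immediate early genes on the array were tested. Ppara, Ppargc1a, Pparg, Lepr, Fgf21, Fos, Fosb, Egr2, Egr3, Atf3 and Jund were among those not tested. None of the 25 genes of the nutrient and fasting response passed the averaged test (median 0.02). Oxct1, of ketone body use, was at -0.23 (adjusted p = 0.0601) and the fatty acid sensor Ppard at 0.22 (adjusted p = 0.132). Within naive samples Ppard rose by 0.56 (adjusted p = 0.0228). None of the 21 immediate early genes passed the averaged test (median 0.08), with Arc at 0.43 (adjusted p = 0.06) and Nr4a1 at 0.33 (adjusted p = 0.0601). Ptgs2, a prostaglandin synthase named after its values were seen, rose within naive samples by 0.67 (adjusted p = 0.0244). Of 20 genes of glycolysis only Slc2a1 passed (median -0.06), and of 23 genes of neurotrophin, insulin and IGF signalling only the IGF receptor Igf1r, which rose by 0.46 (adjusted p = 0.0194; 6.94 to 7.33 against 6.84, 6.70, 6.81 and 6.28). Of 16 glucocorticoid response genes Hsd11b1, which regenerates active glucocorticoid, fell by 0.31 (adjusted p = 0.0281) together with Mt2A. No member passed the averaged comparison among 28 genes of axon growth (median 0.10; Ncan 0.45, Sema4f 0.39), 29 of motors and microtubules (0.05; Kif3c 0.24, Dctn4 0.24), 15 of the circadian clock (0.20; Tef 0.47, Csnk1e 0.45) and 16 of cholesterol synthesis (-0.03; Lss 0.30, Srebf2 0.33). Tef, a clock output factor, rose within trained samples by 0.90 (adjusted p = 0.0386), and within naive samples the microtubule protein Map2 rose by 0.45 (adjusted p = 0.0244) and the tubulin Tubb2b fell by 0.49 (adjusted p = 0.0439), both named after their values were seen. Second probe sets of Kif3c and Dctn4 rose by 0.44 and 0.48.

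Of the marker lists of glia and other cells, the microglial one had a median as far below 0 as that of oxidative phosphorylation, with 1 member past the test. Of 17 microglial and immune markers 16 were below 0 (median -0.23, against 0.02 for all probe sets). Only C1qa, which starts the complement cascade, passed (5.88%, against 2.8% of all probe sets). C1qa fell by 0.52 (adjusted p = 0.00877), with 7.91, 8.07 and 8.28 against 8.25, 8.50, 8.37 and 9.08. Of 21 astrocyte markers the glutamate transporter Slc1a3 fell by 0.36 (adjusted p = 0.0397; median -0.12), while its other 2 probe sets were at -0.02 and 0.01. None of 14 oligodendrocyte markers passed (median -0.14; Cldn11 -0.27, Mobp -0.21), nor any of 7 choroid plexus markers (median -0.37; Enpp2 -0.52, Aqp1 -0.16) or 6 thalamus markers (median 0.17; Rgs16 0.31, Ntng1 0.34). The summed choroid plexus signal was 808 to 9996 with the isocaloric and 855 to 10320 with the control diet. Of the striatum markers the opioid precursor Pdyn, also made by granule cells, rose by 0.54 (adjusted p = 0.031; 1 of 10, median 0.05), and of the cortex markers Ccn2 rose by 0.69 (adjusted p = 0.0373; 1 of 3, median 0.35). The single blood marker above the filter, haemoglobin Hbb, fell by 0.50 (adjusted p = 0.0422), with a summed signal of 599 to 1006 against 909 to 1347; Alas2, Ahsp and Slc4a1 of red cells were under the filter. The part of blood or of any other cell type in the vessel and respiratory changes was not tested.

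**Figure D5:**
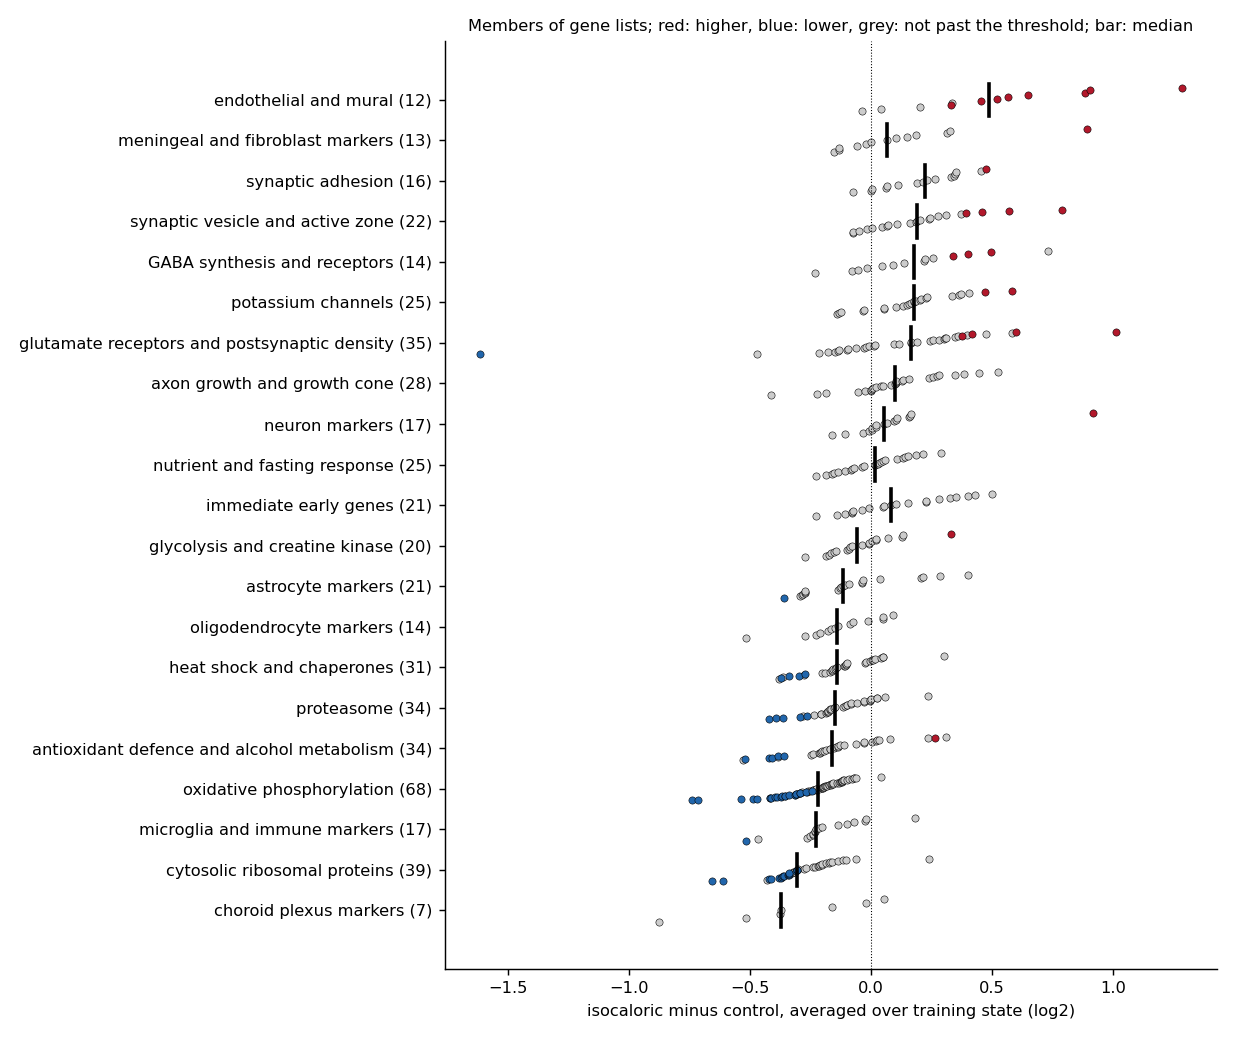
Isocaloric minus control difference (log2, averaged over training state) of each member of 21 gene lists that passed the filter (number in brackets), red where higher, blue where lower, grey where not past the threshold, with a bar at the median. Endothelial and mural genes have a median of 0.49 and ribosomal proteins one of -0.30.

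Within trained samples (4 isocaloric, 2 control) 49 probe sets passed (0.515%), 40 higher and 9 lower. The largest rises were H1f10 (2.08, SE 0.42, adjusted p = 0.037), Cdh22 (2.08, SE 0.43, adjusted p = 0.0386), Cldn5 (1.38, SE 0.12, adjusted p = 4.56e-06), Cxcl12 (1.26, SE 0.12, adjusted p = 1.27e-05) and Klf2 (1.03, SE 0.19, adjusted p = 0.0175). Among the falls, the zinc finger protein Zfp133 was lower by -0.75 (adjusted p = 0.0389), Bcas1, an oligodendrocyte gene, by -0.66 (adjusted p = 0.021), the autophagy gene Vmp1 by -0.52 (adjusted p = 0.0404), the actin nucleator Actr2 by -0.43 (adjusted p = 0.0404) and Hsd17b12 by -0.37 (adjusted p = 0.0386). Bcas1 was at 10.26 to 10.46 in the 4 isocaloric and at 11.02 and 11.05 in the control samples. A second Actr2 probe set was at 0.04. Cldn5 and Cxcl12 kept their calls under each of 25 alternatives, and the other 8 named did not. The count was 10 and 17 without control trained replicates 1 and 2, 21 without isocaloric trained replicate 1 or 4, 24 without its replicate 2 or 3, and 255 and 258 without control naive replicates 1 and 2, which enter here only through the shared estimate of the spread.

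Within naive samples (2 and 2 arrays) 521 probe sets passed (5.47%), 248 higher and 273 lower. Of 39 ribosomal genes tested 22 fell, and of 68 oxidative phosphorylation genes 21 fell, against 273 of all 9520 probe sets. The splicing-related Scaf1 rose by 1.91 (SE 0.46, adjusted p = 0.0243), Zfp414 by 1.79 (SE 0.30, adjusted p = 0.00516), Srgn by 1.74 (SE 0.19, adjusted p = 0.000132), Cxcl12 by 1.65 (SE 0.14, adjusted p = 3.15e-06) and Slc6a6 by 1.6 (SE 0.25, adjusted p = 0.00338). For Scaf1 the control naive arrays were at 6.29 and 3.75, so 1 array carried most of the difference (0.65 without it, adjusted p = 0.299). Srgn was at 7.53 and 7.47 against 5.94 and 5.59. The falls were led by Camk2a, followed by the tRNA splicing subunit Tsen15 (-1.70, adjusted p = 0.031; -0.73 and adjusted p = 0.395 without isocaloric naive replicate 2, which was at 3.91), the phosphodiesterase Pde1b (-1.51, adjusted p = 0.0348), the mitochondrial ribosomal protein Mrpl14 (-1.24, adjusted p = 0.0257) and Ndufb1. Camk2a, Cxcl12 and Srgn kept their calls under each of 25 alternatives. The count was 31 and 14 without isocaloric naive replicates 1 and 2, 2109 without control naive replicate 1 and 38 without control naive replicate 2. Of the probe sets called in trained and in naive samples 13 were shared, 12 of them with the same sign. Over all 9520 probe sets tested, 5560 had the same sign in both.

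The difference of the diet effect between trained and naive samples passed for 17 probe sets (0.179%). The isocaloric minus control difference was higher in trained samples for 7 and lower for 10. Pde1b, a calmodulin-dependent phosphodiesterase, was at 5.43, 6.35, 6.74 and 6.85 in isocaloric trained and 5.13 and 4.65 in control trained samples, but at 4.89 and 4.99 in isocaloric naive and 6.52 and 6.40 in control naive samples. The diet difference was 1.45 in trained and -1.51 in naive samples, and these differed by 2.96 (adjusted p = 0.0288). The small GTPase Nras ran the other way, at -0.62 and 1.36 (difference -1.98, adjusted p = 0.0228), while its second probe set differed by -0.01. The diet difference was also lower in trained than in naive samples for the RNA-binding protein Ssb (-1.34, adjusted p = 0.0228), the neuronal regeneration gene Nrep (-1.46, adjusted p = 0.0228), Srgn (-1.34, adjusted p = 0.0429) and Taf9b of the TFIID complex (-1.65, adjusted p = 0.0429). It was higher in trained samples for Ext1, which builds heparan sulphate (1.31, adjusted p = 0.0429), Bola2 of iron-sulphur handling (1.02, adjusted p = 0.0429), Rpl13a (0.97, adjusted p = 0.0429) and the depalmitoylase Abhd17a (0.91, adjusted p = 0.0228). Srgn, for one, differed between the diets by 0.39 in trained and 1.74 in naive samples, and Rpl13a by -0.17 and -1.14. The call of none of these 10 was kept under every alternative. The count was 719 and 73 without control naive replicates 1 and 2, 1 and 8 without control trained replicates 1 and 2, 5 and 0 without isocaloric naive replicates 1 and 2 and 7 and 10 without isocaloric trained replicates 3 and 4.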

How the data were processed

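Total RNA of rat hippocampus was hybridised to 18 Affymetrix arrays. The authors deposited 1 linear intensity per probe set and array (15923, of which 57 are controls); MAS5 is named for control naive replicate 1 and control trained replicate 2 alone, per the submitters' processing notes, and only those 2 arrays hold values of at most 6 digits throughout. The trimmed mean was about 150.0 on every array, so no further scaling was applied. Log2(intensity + 6.06, the 10th percentile) was fitted with limma 3.58.1 (R 4.3.3; group means of all 18 arrays, eBayes with trend, Benjamini-Hochberg 0.05) over the 9520 probe sets whose mean reached the 40th percentile. Figures used matplotlib 3.10.9. Of the probe sets, 12783 had 1 gene symbol, 312 several and 2771 none; 12748 matched RefSeq. On simulated data with 200 changed probe sets of 9520 in the averaged comparison, 77% of log2 changes of 0.5 and 99% of those of 1 were recovered, and 4.35% of calls were false. The simulated noise was independent between probe sets, without shifts of whole arrays or differences in RNA quality. These shares therefore do not give the share of false calls in the real data.

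The arrays compared and the 36 gene lists were chosen with earlier results of these data known. Named genes are the 12 largest rises and falls and the 6 of each direction with the smallest p of the averaged comparison, the 5 largest of each direction in the others, and up to 4 members per list and direction (2 where none passed). Ranked genes stand on the probe set with the smallest p, list members on the brightest; others are given where they differ. Alternatives changed the constant, filter, scaling, samples, covariates and weights. The number of arrays limits the precision.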

Additional observations from a re-analysis of the deposited data

Results flagged for a closer look

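In the group of 4 isocaloric trained arrays 1 array lay apart for 7 of 120 measures tested, and chance flags about 1 in 20. Replicate 1 was low in Kcnab2 (6.089, others 6.951 to 7.064) and high in Psmb10 (7.455, others 6.894 to 6.987) and Zfp414 (6.813, others 6.228 to 6.307). Replicate 2 was high in Ndufb1 (8.812, others 8.582 to 8.619). Replicate 3, an array high in Ttr, was high in Enpp2, also a choroid plexus gene (11.03, others 8.469 to 8.88). Replicate 4 was high in Nlgn3 (6.626, others 6.212 to 6.274) and low in Slc1a3 (10.8, others 11.03 to 11.06).

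The diet difference depended on training state, by a test of the difference itself, for 10 named genes. The trained minus naive values were 2.965 for Pde1b, 1.312 for Ext1, 1.019 for Bola2, 0.9668 for Rpl13a and 0.9095 for Abhd17a. They were -1.984 for Nras, -1.647 for Taf9b, -1.461 for Nrep, -1.345 for Srgn and -1.34 for Ssb.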

How the results depend on the processing

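Direction was kept by every named call under every alternative, while the counts moved. In the order averaged, trained, naive and difference between them, the counts as reported were 671, 49, 521 and 17. The other constants kept all 4 within 1.5 times. Leaving out 1 array at a time gave 81 to 2362, 10 to 258, 14 to 2109 and 0 to 719. A fit of only the 10 arrays gave 172, 6, 182 and 4, median centring 1216, 29, 841 and 10, and no filter 446, 33, 322 and 7. The stricter filter gave 31 trained calls, quantile normalisation 34 differences, and the additive model 50 averaged calls. Array weights gave 377, 46 and 0 for the last 3 counts. At an unadjusted p under 0.05 the difference had 1323 probe sets as reported. The actin ratio as a covariate gave 38, 3 and 133 for the first 3, and the hexokinase ratio, added after seeing the data, 19 trained calls. Without the 2 arrays noted for MAS5 the counts were 1832, 54, 2010 and 349, and without the other 2 control arrays 56, 46, 31 and 17. Without the 4 arrays high in Ttr, also chosen after seeing the data, they were 67, 8, 333 and 4. The cause of these moves was not tested.

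Of the averaged calls 60.2% were higher as reported and 19.1% (232 higher, 984 lower) after median centring, which took the overall median difference to -0.09 from 0.02; the vessel list then had 6 rises and the median of neuron markers turned to -0.05. Replicate numbers are shared by only 2 arrays per group, and the labels name no shared litter or batch, so they were not taken as pairs (correlations of same-numbered arrays -0.19 to 0.13). With the replicate block the counts were 418, 12, 474 and 8.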
